A study of Homo sapiens with 20 samples.

Results

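Inflammatory chemokines are the genes described here, 10 of the 28051 named genes in the RNAseq files: CXCL8, CXCL2, CXCL3, CXCL10, CXCL16, CCL2, CCL3, CCL4, CCL5 and CCL23. They were chosen by symbol, and the ATACseq regions described are those whose gene annotation lists a member, 7 of 8286. The cells were HL60, an acute myeloid leukemia line of promyelocytic cells that matures toward neutrophils under all-trans retinoic acid (ATRA). The HK3-null cells carried a CRISPR knockout of HK3, a hexokinase of myeloid cells, and the label names a single knockout, KO-2G, taken through puromycin selection and limiting dilution. The Cas9 control cells carried the lentiviral Cas9 vector. Each genotype was kept for 36 h in 1 µM ATRA or in 0.01% DMSO, the solvent, which gave 4 groups of 3 RNAseq libraries and 4 groups of 2 ATACseq libraries. The study's methods describe the replicates as biological. Whether they were separate clones or separate cultures is not said, so p-values measure the spread between these libraries, part of which may be technical.

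Chemokines are small secreted proteins that bind heparan sulfate and G-protein-coupled receptors and direct the migration of leukocytes. The ELR-motif CXC chemokines CXCL8, CXCL2 and CXCL3 act on CXCR2 of neutrophils, and CXCL8 also acts on CXCR1. CXCL10 acts on CXCR3 of activated T cells, and CXCL16 is a membrane-anchored ligand of CXCR6 that metalloproteases shed. The CC chemokine CCL2 recruits monocytes through CCR2, CCL3, CCL4 and CCL5 attract monocytes and T cells, and CCL23 acts on CCR1. Their genes lie in clusters, and in myeloid cells most are transcribed rapidly after signals that activate NF-κB and AP-1.

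Sequences at 5 of the ATACseq regions are given first, since the signal there is compared below. The first shows the 200 bases from 250 to 51 bases before the start of CXCL8 (RefSeq, GRCh38.p14, chr4:73740319-73740518, plus strand); its downstream part lies in the region that spans the start site. Of 6 motifs searched on both strands, it held TGANTCA (AP-1) with its first base 137 bases before the start and GGNNTTTCC (κB) 91 bases before it, both in capitals. Of all 35116 RefSeq promoters, 6.57% held the first motif and 5.48% the second within the 250 bases before the start.
CXCL8 promoter: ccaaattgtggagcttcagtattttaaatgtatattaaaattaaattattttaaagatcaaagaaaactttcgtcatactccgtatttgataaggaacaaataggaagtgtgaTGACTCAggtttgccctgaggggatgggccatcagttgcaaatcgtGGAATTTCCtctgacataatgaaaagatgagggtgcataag
The next is the corresponding stretch of CCL3 (chr17:36090194-36090393, minus strand), which lies wholly inside the region that spans the CCL3 start. Its match in capitals is TTGCNNAA (C/EBP), 116 bases before the start, a motif found in 9.05% of promoters. Its IRF and TATA matches, and the TATA match of CXCL8, run into the last 50 bases and are not marked.
CCL3 promoter: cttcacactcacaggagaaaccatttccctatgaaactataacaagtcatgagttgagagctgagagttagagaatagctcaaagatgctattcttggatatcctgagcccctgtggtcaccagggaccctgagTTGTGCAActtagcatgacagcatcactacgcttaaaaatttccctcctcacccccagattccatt
The central 200 bases of the region just past the 3′ end of CCL2 (GRCh38, chr17:34257559-34257758, plus strand) held none of the 6 motifs.
CCL2 downstream region: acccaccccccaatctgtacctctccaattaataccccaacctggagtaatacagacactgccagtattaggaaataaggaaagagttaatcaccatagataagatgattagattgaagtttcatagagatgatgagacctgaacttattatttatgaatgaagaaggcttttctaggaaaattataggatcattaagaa
The same was true of the central 200 bases of the nearer of 2 regions past the end of CXCL8 (chr4:73744292-73744491, plus strand).
CXCL8 downstream region: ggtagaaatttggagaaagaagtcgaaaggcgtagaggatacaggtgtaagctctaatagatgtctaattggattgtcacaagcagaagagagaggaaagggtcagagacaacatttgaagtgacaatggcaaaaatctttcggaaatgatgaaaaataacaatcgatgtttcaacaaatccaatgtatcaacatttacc
Of the region inside CXCL16 a stretch of 27 bases around its AP-1 match is shown (chr17:4736352-4736378, plus strand). The motif was in the central 200 bases of 14.6% of the 8286 regions.
CXCL16 intron region: gagggaagagTGAGTCAgggaggttat
The other motifs searched were GAGGAAGT (PU.1), GAAANNGAA (IRF) and TATAAA. A κB match was also found before the starts of CXCL2, CXCL3 and CXCL10, and none in the 250 bases before CCL3 or CCL23. Such matches describe the letters of these windows and no binding was measured.

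The scaled totals were 29056349 to 31549781 counts per RNAseq library, and the depth estimated from them was 22678480 to 37019858 counts. HK3, the targeted gene, had more or similar RNA in libraries with the HK3-null label: its normalized counts were 90, 65 and 105 in Cas9 control DMSO and 344, 302 and 346 in HK3-null DMSO, and 1305, 1298 and 1850 against 1384, 1285 and 1975 in ATRA. A small deletion or insertion need not lower a transcript, so these counts do not check the labels, and HK3-null is used below for the libraries so labelled. Cas9 control DMSO replicate 1 stood apart in fibroblast genes, with 321 counts of COL1A1 against 7 to 33 in the other 11 libraries. The HL60 granule genes MPO, ELANE, AZU1, PRTN3 and CTSG were abundant in all 12 libraries. Monocyte and macrophage markers moved with genotype: the 8 markers summed to 8042 to 8838 counts in Cas9 control DMSO, 1971 to 2064 in Cas9 control ATRA, 45392 to 47274 in HK3-null DMSO and 26122 to 29257 in HK3-null ATRA. LYZ made up most of each sum, and FCGR3A, CD163 and MRC1 did not exceed 6 counts in any library. Of the 5 markers tested, 4 were called higher in HK3-null DMSO, LYZ, CD14 and CSF1R among them, and with ATRA 3 were higher, LYZ and CD14 among them, and 1 lower. The lower marker was CSF1R, with 143, 116 and 228 counts against 279, 278 and 422 in Cas9 control ATRA (-1.03 ± 0.25, limma adjusted p = 0.00313). The part of such cell states in the chemokine levels was not tested. In bulk RNA, a change in how many cells transcribe a gene and a change in RNA per cell cannot be told apart.

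CXCL8 and most CC chemokines were higher in HK3-null than in Cas9 control cells, with and without ATRA, and CCL2 was the most abundant in either genotype once ATRA was added. Values are normalized counts, the library's counts after the authors' scaling. A gene was tested where its group mean on the log2(count + 1) scale exceeded 3 in at least 1 group, and it was called where the limma adjusted p was under 0.05 and the fold at least 2. By this rule 7 of the 10 members were tested. CCL2, CCL4, CCL5 and CXCL8 passed in every group, CCL3 only through the HK3-null groups, CXCL16 only through the ATRA groups, and CCL23 in every group but Cas9 control DMSO. In DMSO 7 members were called higher and 0 lower in HK3-null, where 11.6% of all 13429 tested genes were called higher and 8.72% lower. With ATRA the call was higher for 6 and lower for 0, against 12.4% and 10.6% of all tested genes. Because the filter let some members in through their high groups, these counts describe the members and are not evidence about them as a set. The plot of members by library shows each value.

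**Figure D1:**
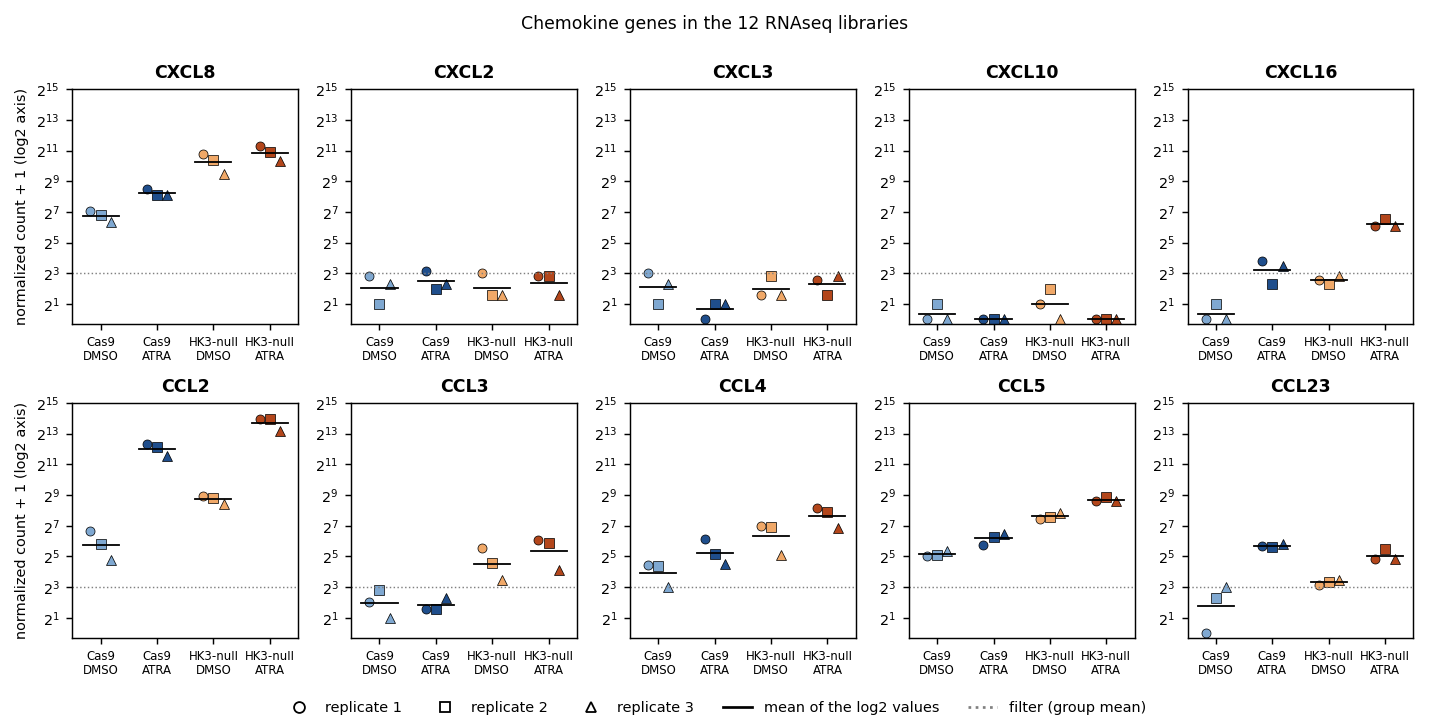
Normalized count + 1 of each of the 10 chemokine genes on a log2 axis, in 12 RNAseq libraries in 4 groups; symbols mark the replicate number, bars the mean of the log2 values and the dotted line the filter. CXCL8 runs from 82 counts in a Cas9 control DMSO library to 2483 in an HK3-null ATRA library, whereas CXCL2, CXCL3 and CXCL10 stay at 8 counts or fewer throughout.

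CXCL8, the neutrophil attractant also called interleukin-8, held 135, 110 and 82 counts in Cas9 control DMSO and 1774, 1351 and 721 in HK3-null DMSO. With ATRA it held 364, 276 and 272 counts in Cas9 control and 2483, 1878 and 1293 in HK3-null. The lowest HK3-null library in each treatment was above the highest Cas9 control library, while the DMSO and ATRA ranges of HK3-null overlapped. HK3-null exceeded Cas9 control by a log2 fold change of 3.48 ± 0.31 (SE, limma adjusted p = 1.03e-06, n = 3 against 3) in DMSO and 2.59 ± 0.31 (adjusted p = 1.19e-05) in ATRA. ATRA raised CXCL8 in Cas9 control by 1.49 ± 0.31 (adjusted p = 0.00206). In HK3-null its ATRA difference was 0.60 ± 0.31 (adjusted p = 0.128; with the replicate number as a term, adjusted p = 0.00113, still under the 2-fold limit), and 0.88 (adjusted p = 0.0383) without HK3-null DMSO replicate 1. This gene set the scale of the group without ATRA: it gave 44.3 to 48.0% of the counts of the 10 members in Cas9 control DMSO and 53.6 to 67.7% in HK3-null DMSO.

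The other neutrophil-directed members were at the edge of detection. CXCL2 had 6, 1 and 4 counts in Cas9 control DMSO, 8, 3 and 4 in Cas9 control ATRA, 7, 2 and 2 in HK3-null DMSO and 6, 6 and 2 in HK3-null ATRA. CXCL3 had 7, 1 and 4, then 0, 1 and 1, then 2, 6 and 2, and then 5, 2 and 6 counts in the same order of groups. Neither passed the filter. Without a filter CXCL3 in ATRA was higher in HK3-null by 1.66 (limma adjusted p = 0.0329), which rested on 13 counts against 2, a ratio of 6.5 with a 95% counting interval of 1.47 to 59.3, and no other difference between genotypes in either gene passed. CXCL1, their close relative outside the member list, had 1 count in a single library. CXCL8 therefore stood apart from CXCL2 and CXCL3 by level: per kilobase of canonical transcript (GENCODE version 44), its mean in HK3-null ATRA was 1148 counts, against 4.19 for CXCL2 and 4.03 for CXCL3.

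CXCL10, an interferon-induced ligand of CXCR3, had 0, 1 and 0 counts in Cas9 control DMSO, 1, 3 and 0 in HK3-null DMSO and 0 in all 6 ATRA libraries. A count of 0 allows up to 3 counts of a library, which is 2.61 to 3.84 normalized counts in these 6 libraries, for counting error only. CXCL16 was low in DMSO and rose with ATRA: 0, 1 and 0 counts in Cas9 control DMSO, 5, 4 and 6 in HK3-null DMSO, 13, 4 and 10 in Cas9 control ATRA and 67, 90 and 68 in HK3-null ATRA. Its HK3-null ATRA libraries were all above the other 9 libraries, and the HK3-null DMSO and Cas9 control ATRA ranges overlapped. In ATRA the genotypes differed by 3.04 ± 0.42 on the log2 scale (adjusted p = 3.90e-05), and ATRA raised CXCL16 by 2.86 ± 0.42 in Cas9 control (adjusted p = 0.000149) and 3.66 ± 0.42 in HK3-null (adjusted p = 1.14e-05). With 8 added in place of 1, the Cas9 control ATRA response was 0.99 and the DMSO genotype difference 0.64, and with the authors' written zeros they were 9.65 and 8.95, so their size was not determined. With those zeros the ATRA genotype difference was 3.21 (adjusted p = 0.205) and the HK3-null ATRA response 3.91 (adjusted p = 0.143). In DMSO the fitted difference was 2.24 ± 0.42 (adjusted p = 0.000556) but rested on 15 counts against 1, a ratio of 15.0 with a 95% counting interval of 2.31 to 631.5 (exact binomial).

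CCL2, the monocyte attractant also called MCP-1, had by far the widest range. Its counts were 102, 56 and 26 in Cas9 control DMSO, 479, 453 and 338 in HK3-null DMSO, 5122, 4544 and 2983 in Cas9 control ATRA and 15625, 15972 and 9056 in HK3-null ATRA. No neighbouring groups overlapped in this order. ATRA raised CCL2 by 6.25 ± 0.39 on the log2 scale in Cas9 control (adjusted p = 9.37e-08) and 4.97 ± 0.39 in HK3-null (adjusted p = 4.39e-07). HK3-null was above Cas9 control by 2.95 ± 0.39 in DMSO (adjusted p = 3.47e-05) and 1.67 ± 0.39 in ATRA (adjusted p = 0.00255). With a library left out the DMSO difference ran from 2.45 to 3.42. The highest value was without Cas9 control DMSO replicate 1, which stood apart in COL1A1. CCL2 is also a product of fibroblasts, and any part of fibroblast RNA in its counts was not tested. CCL2 gave 86.8 to 91.1% of all member counts in Cas9 control ATRA and 82.5 to 85.2% in HK3-null ATRA. Per kilobase it was highest of the 10 members in both ATRA groups, while in both DMSO groups its range overlapped that of CXCL8.

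CCL3 and CCL4, the MIP-1 chemokines that are encoded side by side on chromosome 17, were higher in HK3-null at modest levels. CCL3 had 3, 6 and 1 counts in Cas9 control DMSO, 2, 2 and 4 in Cas9 control ATRA, 45, 23 and 10 in HK3-null DMSO and 65, 57 and 16 in HK3-null ATRA. Every HK3-null library exceeded every Cas9 control library. The log2 difference between genotypes was 2.59 ± 0.64 in DMSO (adjusted p = 0.00390) and 3.50 ± 0.64 in ATRA (adjusted p = 0.000396). ATRA changed CCL3 by -0.11 ± 0.64 in Cas9 control (adjusted p = 0.915) and 0.81 ± 0.64 in HK3-null (adjusted p = 0.315), with 95% intervals of -1.49 to 1.28 and -0.58 to 2.19. With 8 added to the counts in place of 1, the genotype differences were 1.47 and 2.19. An antisense gene, CCL3-AS1, overlaps CCL3, and the libraries were directional, but whether counting used strand is not given in the sources used here.

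CCL4 had 21, 20 and 7 counts in Cas9 control DMSO, 68, 34 and 22 in Cas9 control ATRA, 126, 121 and 33 in HK3-null DMSO and 280, 233 and 117 in HK3-null ATRA. The HK3-null DMSO range overlapped both ATRA ranges. The genotype difference was 2.39 ± 0.58 in DMSO (adjusted p = 0.00366) and 2.38 ± 0.58 in ATRA (adjusted p = 0.00334). The ATRA difference was 1.30 ± 0.58 in Cas9 control (adjusted p = 0.0900) and 1.29 ± 0.58 in HK3-null (adjusted p = 0.0818). With the replicate number as a term both passed, at adjusted p = 0.000183 and 0.000153. The first also passed without HK3-null DMSO replicate 3 (adjusted p = 0.0460) and the second, at 1.67, without HK3-null ATRA replicate 3 (adjusted p = 0.0493), and they were 0.83 without Cas9 control DMSO replicate 3 and 0.67 without HK3-null DMSO replicate 3. Each gene has a near-identical copy that could share its reads. CCL3L3 held 3 to 6 counts in Cas9 control ATRA and 16 to 26 in HK3-null ATRA (log2 fold change 2.12 ± 0.41, adjusted p = 0.000637), and CCL4L2 9 to 37 and 36 to 147 (2.16 ± 0.78, adjusted p = 0.0301), so how the reads divide between copies is uncertain. CCL3L3 passed the filter only through the HK3-null groups, where it was high.

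CCL5, also called RANTES, had the tightest replicates of the members. Its counts were 31, 33 and 40 in Cas9 control DMSO, 53, 77 and 88 in Cas9 control ATRA, 174, 190 and 224 in HK3-null DMSO and 391, 473 and 393 in HK3-null ATRA. The 4 ranges did not overlap. The genotype difference was 2.47 ± 0.19 in DMSO (adjusted p = 2.90e-07) and 2.54 ± 0.19 in ATRA (adjusted p = 1.97e-07), and ATRA added 1.02 ± 0.19 in Cas9 control (adjusted p = 0.000958) and 1.09 ± 0.19 in HK3-null (adjusted p = 0.000408). The interaction of genotype and ATRA was 0.07, with a 95% interval of -0.52 to 0.66. T and NK cells are a known source of CCL5. Of the 6 T and NK cell markers, CD3D, CD3G and CD2 did not exceed 2 counts in any library. The other 3 were tested, and 1 was called higher in HK3-null DMSO and 3 in HK3-null ATRA. Of all tested genes 11.6% and 12.4% were called higher. CD3E and GNLY passed the filter only through HK3-null ATRA, where they were high, so their calls between genotypes are not evidence. CD3E had 1 to 4 counts in Cas9 control and 5 to 12 in HK3-null libraries (1.45 ± 0.45 in DMSO and 1.57 ± 0.45 in ATRA, adjusted p = 0.0146 and 0.00853). GNLY had 15 to 26 counts in HK3-null ATRA and 7 or fewer elsewhere (3.50 ± 0.48 in ATRA, adjusted p = 3.93e-05). NKG7 went from 206 to 230 counts in Cas9 control DMSO to 1114 to 1214 in HK3-null ATRA. The 6 summed to 214 to 238, 280 to 315, 423 to 445 and 1145 to 1249 counts in Cas9 control DMSO, Cas9 control ATRA, HK3-null DMSO and HK3-null ATRA. Their part in the CCL5 levels was not tested.

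CCL23, a CCR1 ligand of myeloid cells, was the tested member that was not higher in HK3-null with ATRA. It had 0, 4 and 7 counts in Cas9 control DMSO, 8, 9 and 10 in HK3-null DMSO, 50, 47 and 54 in Cas9 control ATRA and 28, 43 and 27 in HK3-null ATRA. In ATRA its highest group was Cas9 control, and the difference between genotypes was -0.64 ± 0.57 (adjusted p = 0.354, 95% interval -1.89 to 0.61). ATRA raised CCL23 by 3.91 ± 0.57 in Cas9 control (adjusted p = 0.000154) and 1.72 ± 0.57 in HK3-null (adjusted p = 0.0240). The DMSO difference of 1.54 ± 0.57 (adjusted p = 0.0362) depended on a few counts: it was 0.66 (adjusted p = 0.0818) without Cas9 control DMSO replicate 1, the library at 0, and leaving out any HK3-null DMSO replicate also ended the call (adjusted p = 0.0626 to 0.0849). With 8 added in place of 1 it was 0.59 and the Cas9 control ATRA response 2.37, and with the authors' written zeros they were 4.88 and 7.37.

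**Figure D2:**
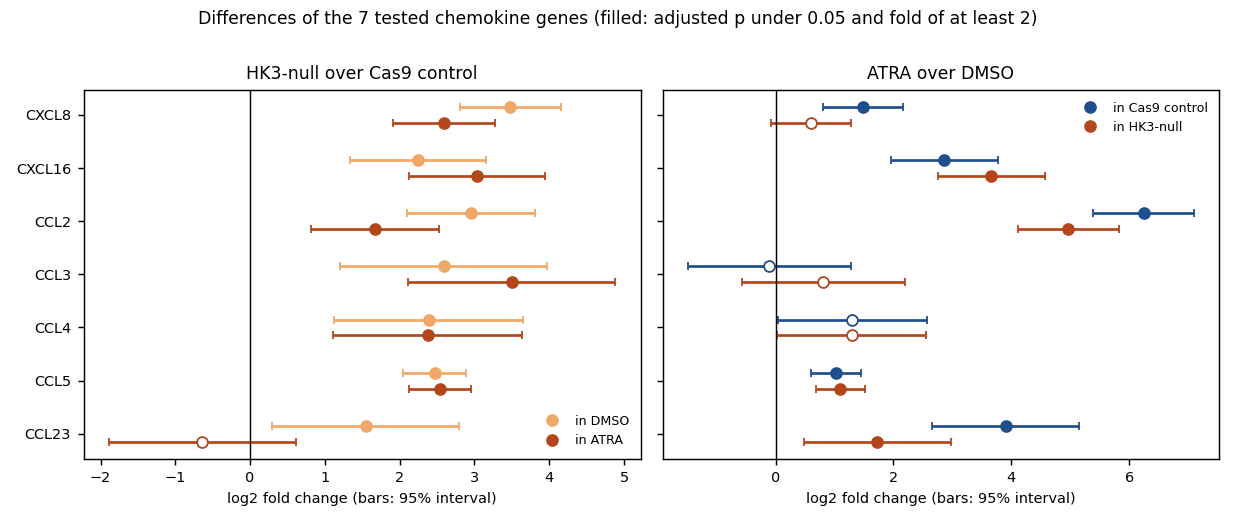
Log2 fold changes of the 7 tested chemokine genes with 95% intervals, HK3-null over Cas9 control on the left and ATRA over DMSO on the right; filled points were called. Between genotypes only CCL23 in ATRA falls below 0, at -0.64, and for ATRA the values run from -0.11 for CCL3 to 6.25 for CCL2, both in Cas9 control.

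ATRA itself raised 5 members in Cas9 control and lowered 0, with a median log2 change of 1.49 over the 7 tested, where 7.25% of all tested genes were called higher and 3.16% lower. In HK3-null 4 were called higher and 0 lower, against 8.85% and 6.49%. CXCL16 passed the filter only through the ATRA groups, and in Cas9 control CCL23 passed it only with ATRA. These counts and the median also describe the members and are not evidence about them as a set. The question whether ATRA acted equally in both genotypes was put to the interaction term. By limma no member passed an adjusted p of 0.05 for it, whereas 9.81% of tested genes did, and 2 members had an unadjusted p under 0.05. With the replicate number as a term 3 members passed, and so did 3175 of all 13429 tested genes. Each of the 3 had a smaller ATRA increase in HK3-null: CCL2 at -1.28 on the log2 scale (adjusted p = 0.192 without the term, 0.00303 with it), CXCL8 at -0.89 (0.262 and 0.00347) and CCL23 at -2.18 (0.124 and 0.0357). With 8 added to the counts, and without the replicate term, 1569 of all tested genes passed. Of the members 2 did, in opposite directions: CCL23 at -1.13 (adjusted p = 0.0361) and CXCL16 at 1.67 (adjusted p = 0.00249), where the reported CXCL16 interaction was 0.80 (adjusted p = 0.484) and that with the authors' written zeros -5.74 (adjusted p = 0.294). Leaving out a library moved the CCL2 interaction between -0.78 (without Cas9 control DMSO replicate 3) and -1.74 (without its replicate 1), and that of CCL23 between -1.29 (without replicate 1) and -2.79 (without replicate 3 of the same group). For CCL2 and CXCL8 the smaller rise started from a higher DMSO level and ended at a higher ATRA level. The plot of paired libraries shows these changes.

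**Figure D3:**
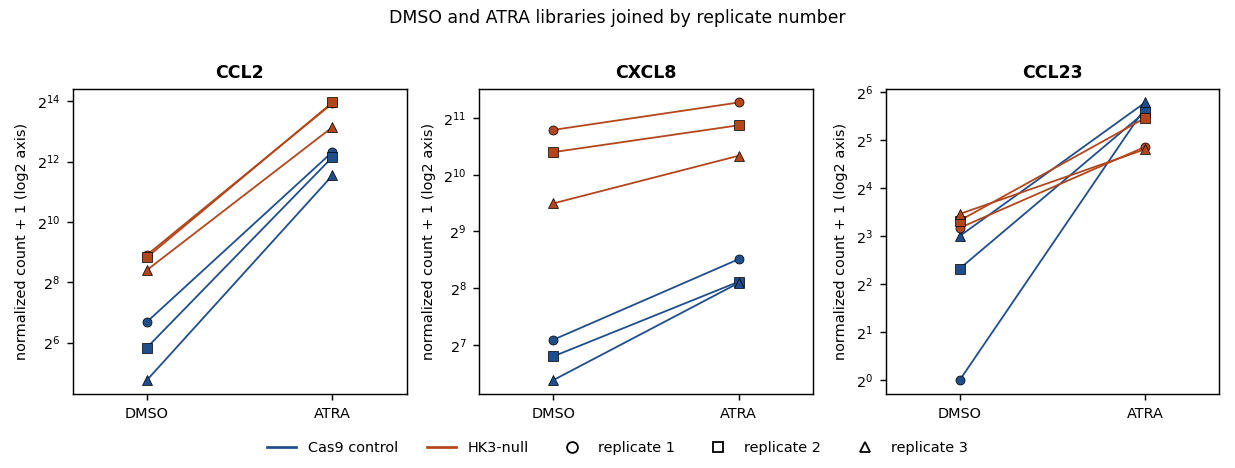
Normalized count + 1 on a log2 axis for CCL2, CXCL8 and CCL23 in DMSO and ATRA, with libraries of the same genotype and replicate number joined. The HK3-null lines of CCL2 and CXCL8 lie above the Cas9 control lines, and for CCL23 they cross them, from 8 to 10 counts in DMSO to 27 to 43 in ATRA.

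Libraries of the same replicate number shared part of their variation. Replicate 3 was the lowest of its group in all 4 groups for CXCL8, CCL2 and CCL4. Its difference from replicate 1 was -0.84 for CXCL8 (limma adjusted p = 9.91e-05), -1.0 for CCL2 (adjusted p = 0.000365) and -1.55 for CCL4 (adjusted p = 5.27e-05) on the log2 scale. CCL3 had -1.07 (adjusted p = 0.0752), and CCL5 went the other way, at 0.36 (adjusted p = 0.0368). Of all tested genes, 36.5% passed for replicate 3 against 1 and 6.36% for replicate 2 against 1.

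Genes whose values ran closest to a member were found by the root mean square difference of centred log2 values over the 12 libraries, for the 3 members with the widest range of group means. Nearest to CCL2 were GNG2 (0.39), NCF1B (0.50) and NCF1 (0.54), a G-protein subunit, a copy of NCF1 and the p47 subunit of the neutrophil oxidase. NCF1B and NCF1 could share reads. Nearest to CXCL16 were SCIMP (0.59), H6PD (0.59) and OLR1 (0.60), and nearest to CXCL8 were STX1A (0.33), CACNA2D4 (0.35) and PTAFR (0.39), the receptor for platelet-activating factor.

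Chromatin accessibility was compared at 7 regions that list CXCL8, CCL2, CCL3, CXCL16 or CXCL2. No deposited region listed the other 5 members. In ATRA the genotypes differed 1.5-fold or more at all 8286 regions, so the regions were selected on that contrast and it is not tested here. Signal is fragment density after the authors reduced all libraries to equal tags. In DMSO, 6 of 6 tested member regions were called higher in HK3-null (adjusted p under 0.05 and 1.5-fold), where 42.7% of the 6214 tested regions were called higher and 43.9% lower. Of the 4553 regions higher in HK3-null ATRA, 97.3% were also higher in HK3-null DMSO, so the direction at the member regions was that of nearly every region selected this way, and their count supports nothing about the members.

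The region spanning the CXCL8 start (chr4:73740389-73740840) had a signal of 46.7 and 77.4 in Cas9 control DMSO, 49.0 and 42.2 in Cas9 control ATRA, 104 and 92.6 in HK3-null DMSO and 99.4 and 131 in HK3-null ATRA. Its DMSO difference was 0.70 ± 0.30 on the log2(signal + 1) scale (limma adjusted p = 0.0314). Left out in turn, Cas9 control DMSO replicate 1 and the HK3-null DMSO replicates 1 and 2 each ended the call (0.34, 0.61 and 0.78, adjusted p = 0.432, 0.179 and 0.0874), and without Cas9 control DMSO replicate 2 the difference was 1.06. This is the region that holds the κB and AP-1 letters printed above, and its signal was above the filter in both genotypes.

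Past the end of CXCL8 the contrast was larger. At chr4:73744201-73744582, 485 bases beyond the gene, the signal was 2.27 and 1.17 in Cas9 control DMSO, 1.30 and 1.00 in Cas9 control ATRA, 36.2 and 43.7 in HK3-null DMSO and 22.7 and 42.9 in HK3-null ATRA. At chr4:73744923-73745162, 1207 bases beyond it, the values were 1.67 and 3.12, 2.38 and 2.25, 22.5 and 33.0, and 24.9 and 47.2 in the same order. Both were near the bottom of the scale in all 4 Cas9 control libraries. Their DMSO log2 differences were 3.94 ± 0.52 (adjusted p = 3.95e-08) and 3.09 ± 0.50 (adjusted p = 1.74e-06). Both passed the filter on mean signal through the HK3-null libraries alone, at means of 18.9 and 17.1, so that they had to differ, and without a filter the adjusted p values were 7.25e-07 and 9.69e-06. With 8 added to the signal in place of 1, the differences were 2.30 and 1.77. ATRA changed the first by -0.31 ± 0.52 in Cas9 control and -0.34 ± 0.52 in HK3-null (adjusted p = 0.746 and 0.731).

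The CCL2 region (chr17:34257308-34258008), 105 bases past the gene's canonical end, was lowest in Cas9 control DMSO and highest in HK3-null ATRA, as the CCL2 transcript was, with HK3-null DMSO and Cas9 control ATRA in the reverse order to the transcript. Its signal was 1.00 and 1.00 in Cas9 control DMSO, 13.2 and 8.41 in Cas9 control ATRA, 15.3 and 19.7 in HK3-null DMSO and 59.4 and 97.5 in HK3-null ATRA. HK3-null exceeded Cas9 control in DMSO by 3.20 ± 0.45 (adjusted p = 1.24e-07, and 1.30e-06 without a filter). The Cas9 control values were all below the signal filter of 17.1. The region passed it, at a mean of 26.9, only through the HK3-null libraries, where it was high. With 8 added in place of 1 the DMSO difference was 1.5, and the ATRA response in Cas9 control, given next, was 1.05. It was the single member region called for ATRA in both genotypes, at 2.53 ± 0.45 in Cas9 control (adjusted p = 8.48e-05) and 2.07 ± 0.45 in HK3-null (adjusted p = 0.000946), where ATRA raised 2.54% and 5.04% of tested regions and lowered 15.6% and 11.8%. The ATRA libraries took part in choosing the regions, and the ATRA genotype differences at the 7 regions ran from 1.24 to 3.91.

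At the CCL3 start (chr17:36090009-36090667) the signal was 33.4 and 24.7 in Cas9 control DMSO, 22.7 and 16.0 in Cas9 control ATRA, 68.3 and 73.9 in HK3-null DMSO and 41.5 and 52.0 in HK3-null ATRA. The genotypes differed by 1.28 ± 0.33 in DMSO (adjusted p = 0.000705). The CXCL16 region (chr17:4736241-4736568) lies in an intron of the canonical transcript, and in an exon of another transcript, and also lists MED11 and ZMYND15. It had 18.9 and 20.8 in Cas9 control DMSO, 36.7 and 16.5 in Cas9 control ATRA, 66.1 and 83.2 in HK3-null DMSO and 89.2 and 101 in HK3-null ATRA, with a DMSO difference of 1.85 ± 0.34 (adjusted p = 9.63e-06). The CXCL2 region (chr4:74109103-74109371), upstream of a gene with 8 counts or fewer, was below the signal filter of 17.1 and was not tested. Its signal was 8.38 and 9.62, 2.0 and 2.38, 23.2 and 7.50, and 8.75 and 19.1 in Cas9 control DMSO, Cas9 control ATRA, HK3-null DMSO and HK3-null ATRA.

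**Figure D4:**
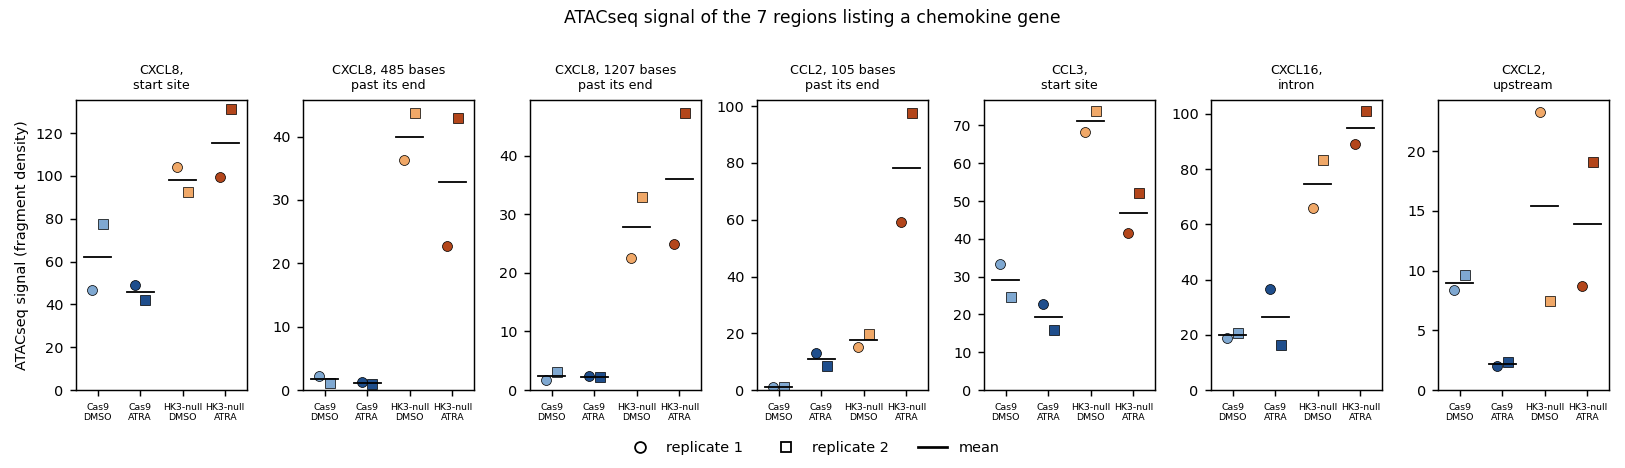
ATACseq signal (fragment density, linear axes that differ between panels and start at 0) of the 7 regions in the 8 libraries, with the mean of the 2 replicates of each group as a bar. The 2 regions past the end of CXCL8 lie at 3.12 or below in all Cas9 control libraries and at 22.5 or above in all HK3-null libraries.

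Genes of the chemokine pathway were counted in 6 lists. List medians below are log2 fold changes, and the medians of all 13429 tested genes were 0 to 0.01 in the 4 comparisons. Of 36 other chemokines in the files, 7 were tested: 1 was called higher and 0 lower in HK3-null DMSO, and with ATRA the counts were 3 higher and 1 lower. CCL24, an eosinophil attractant, had 0 counts in all Cas9 control DMSO libraries, 0, 2 and 1 in HK3-null DMSO, 228, 267 and 291 in Cas9 control ATRA and 1374, 1412 and 1424 in HK3-null ATRA, so that ATRA raised it at least 95.4-fold in Cas9 control (against 3 counts per library). In ATRA it was higher in HK3-null by 2.42 ± 0.32 (adjusted p = 2.68e-05). CCL22, a ligand of CCR4, rose with ATRA by 4.07 ± 0.25 in Cas9 control and 4.20 ± 0.25 in HK3-null (adjusted p = 8.61e-08 and 3.83e-08). ATRA raised 4 of the 7 in Cas9 control and 3 in HK3-null and lowered none of them by the call rule. CCL3L3, given above, was the gene called in DMSO, at 2.24 ± 0.41 (adjusted p = 0.000473), and CCL4L2 was second to CCL24 in ATRA. CCL3L3 passed the filter only through the HK3-null groups, and CCL22 and CCL24 only through the ATRA groups. The filter favoured the genotype calls of CCL3L3 and the ATRA calls of CCL22 and CCL24, so these are not evidence beyond the counts. The list's medians were 0.86 and 0.80 between genotypes in DMSO and ATRA, and 1.15 and 1.27 for ATRA in Cas9 control and HK3-null.

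Of 23 chemokine receptors 13 were tested. In DMSO 7 were called higher and 1 lower in HK3-null, and in ATRA 5 higher and 2 lower. ATRA raised 7 in Cas9 control and lowered 0, and raised 7 and lowered 1 in HK3-null. CXCR5 rose by 7.15 ± 0.36 in Cas9 control and CCR3 by 6.48 ± 0.46 in HK3-null (adjusted p = 1.27e-08 and 1.60e-07). CX3CR1, the fractalkine receptor, was higher in HK3-null DMSO by 2.43 ± 0.69 (adjusted p = 0.00917) at 5 to 18 counts. In ATRA the largest differences were of ACKR2, a scavenger of CC chemokines (-2.99 ± 0.64, adjusted p = 0.00130), and CCR6 (-1.97 ± 0.46, adjusted p = 0.00230). CX3CR1 passed the filter only through HK3-null DMSO, ACKR2 only through Cas9 control ATRA and CCR6 only through the Cas9 control groups. CCR3 passed only through the ATRA groups. The filter favoured these calls, so they are not evidence beyond the counts. The medians between genotypes were 1.35 in DMSO (1.09 with folds against zeros set at their bound) and 0.62 in ATRA, and those for ATRA 3.23 in Cas9 control and 1.38 in HK3-null. CXCR2, a receptor for CXCL8, had 301 to 948 counts and was not called in any of the 4 comparisons (adjusted p = 0.0108 and 0.00340 for ATRA in Cas9 control and HK3-null, with folds under 2).

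Of 28 inducers and sensors 22 were tested, with 6 called higher and 0 lower in HK3-null DMSO and 8 and 0 in HK3-null ATRA. TNF, a cytokine that induces many chemokines, had 175, 160 and 90 counts in Cas9 control DMSO, 54, 52 and 32 in Cas9 control ATRA, 2262, 1839 and 1279 in HK3-null DMSO and 1826, 1854 and 1075 in HK3-null ATRA. It was higher in HK3-null by 3.67 ± 0.31 in DMSO and 5.07 ± 0.31 in ATRA (adjusted p = 5.36e-07 and 2.59e-08), and the median gene of its chromosome, 6, differed by 0.52 and 0.57. The members' own chromosomes, 4 and 17, had medians of 0.08 and 0 in DMSO. TNF fell with ATRA in Cas9 control by 1.58 on the log2 scale (adjusted p = 0.00120), the direction opposite to CCL2 and CXCL8 in the same libraries. CD14, a co-receptor for lipopolysaccharide, was higher in HK3-null by 4.97 ± 0.32 in DMSO and 4.82 ± 0.32 in ATRA (adjusted p = 5.34e-08 and 6.10e-08). IL1R2, the decoy receptor for interleukin-1, had 0 counts in all 6 Cas9 control libraries and 17, 12 and 10 in HK3-null DMSO, at least 4.73-fold higher. With ATRA 0 were called higher and 3 lower in Cas9 control, led by IL1RN (-3.05 ± 0.55, adjusted p = 0.000709), and 3 higher and 4 lower in HK3-null, led by IL1R2 (-3.11 ± 0.43, adjusted p = 6.33e-05) and TLR9 (-2.28 ± 0.18, adjusted p = 3.45e-07). The list medians between genotypes were 0.43 and 0.70, and those for ATRA 0.11 and 0.23.

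Of 24 NF-κB and AP-1 factors and inhibitors 23 were tested. HK3-null was called higher for 10 and lower for 0 in DMSO, and higher for 11 and lower for 0 in ATRA. The median gene of chromosome 8, which holds IKBKB, differed by 1.10 in DMSO and 1.06 in ATRA. For chromosome 6, which holds NFKBIE and TNFAIP3, the medians were 0.52 and 0.57. The part of these shifts in the list counts was not tested. FOSL1, an AP-1 subunit, had 28, 11 and 6 counts in Cas9 control DMSO and 193, 192 and 151 in HK3-null DMSO (3.73 ± 0.48, adjusted p = 2.79e-05). In ATRA it had 5, 6 and 15 counts against 119, 79 and 61 (3.26 ± 0.48, adjusted p = 7.45e-05). FOS differed by 3.19 ± 0.27 in DMSO and 3.78 ± 0.27 in ATRA (adjusted p = 5.85e-07 and 1.13e-07). ATRA called 1 higher in Cas9 control, BCL3 (1.25 ± 0.36, adjusted p = 0.0142), and 2 in HK3-null, FOS (1.28 ± 0.27, adjusted p = 0.00158) and BCL3 (1.07 ± 0.36, adjusted p = 0.0250), and none lower. The medians were 0.68 and 0.93 between genotypes and 0.04 and 0.04 for ATRA.

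Of 16 interferon and IRF-STAT factors, all tested, 2 were called higher and 1 lower in HK3-null DMSO, and 3 higher and 1 lower in ATRA. Of all tested genes 11.6% were called higher and 8.72% lower in DMSO, and 12.4% and 10.6% in ATRA. The genotype counts were near those shares and are not a result about the list. SOCS1, a feedback inhibitor of STAT signaling, was higher by 1.78 ± 0.35 in DMSO and 2.02 ± 0.35 in ATRA (adjusted p = 0.000753 and 0.000244). IRF8, a factor of monocyte development, was higher in HK3-null by 1.49 ± 0.27 in DMSO and lower in ATRA, at -1.86 ± 0.27 (adjusted p = 0.000502 and 7.04e-05). ATRA raised 5 and lowered 0 in Cas9 control and raised 7 and lowered 2 in HK3-null. SOCS3 led both, at 7.74 ± 0.66 and 6.94 ± 0.66 (adjusted p = 1.57e-06 and 2.32e-06), followed by SOCS1 at 3.06 ± 0.35 and 3.30 ± 0.35. The medians were 0.42 and 0.45 between genotypes and 0.40 and 0.77 for ATRA. Of 12 genes of mRNA decay and shedding 11 were tested, and 2 were called higher and 0 lower in HK3-null in each treatment. These were ZFP36, tristetraprolin, which destabilizes AU-rich cytokine mRNAs (1.26 ± 0.14 in DMSO and 1.66 ± 0.14 in ATRA, adjusted p = 8.63e-06 and 6.00e-07), and MMP9, a protease (3.62 ± 0.44 and 3.15 ± 0.44, adjusted p = 1.68e-05 and 4.84e-05). MMP9 passed the filter only through the HK3-null groups, which favoured its genotype calls, so they are not evidence beyond the counts. With ATRA none was called in Cas9 control, and in HK3-null ZFP36L2 was higher (1.02 ± 0.14, adjusted p = 6.16e-05) and MMP9 lower (-1.27 ± 0.44, adjusted p = 0.0298). The medians were 0.20 and 0.35 between genotypes and -0.20 and -0.19 for ATRA.

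**Figure D5:**
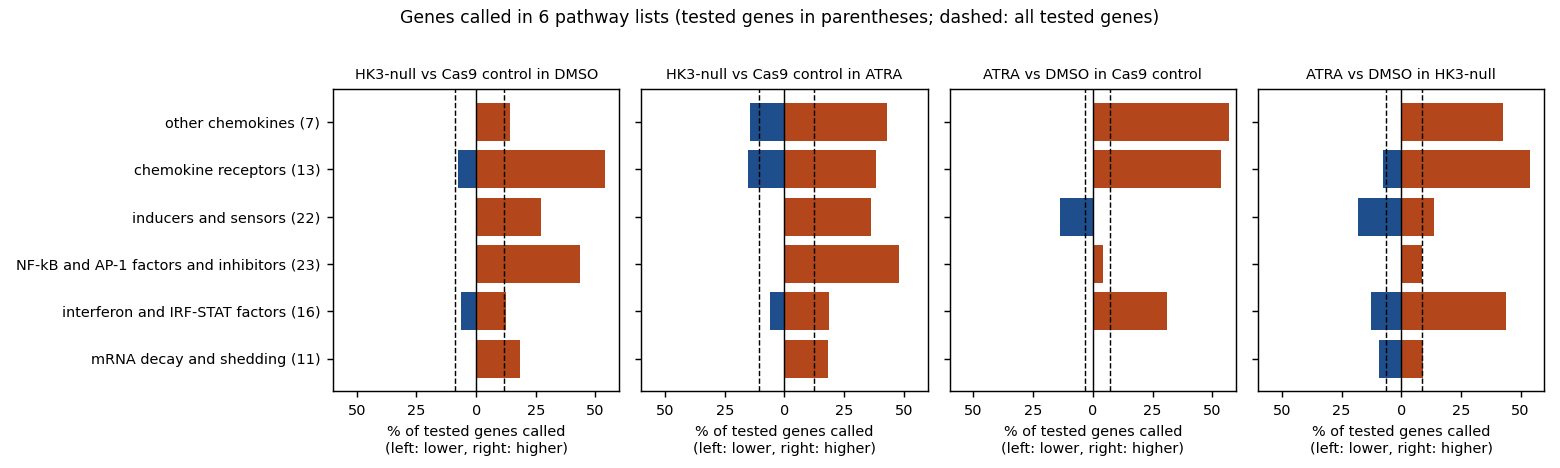
Percent of the tested genes of 6 pathway lists called higher (right) or lower (left) in each of the 4 comparisons, with the share of all 13429 tested genes as dashed lines. For NF-κB and AP-1 factors the bars are long between genotypes (10 and 11 of 23 higher) and short for ATRA (1 and 2 of 23), and for receptors the ATRA bars reach 7 of 13 in either genotype.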

How the data were processed

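RNAseq was measured in 12 libraries and ATACseq in 8, and libraries were grouped by the genotype and treatment in their labels. The members, gene lists and tests were chosen with earlier results of these data known. The deposited RNAseq values are log2 values of counts that the authors had scaled between libraries, with 0 written as the log2 of 0.001; they are not scaled by length, although RPKM is named in the methods. The processing notes name DESeq2, MACS2 and GRCh38, and the RNAseq aligner is not given in the sources used here. The deposited ATACseq signal is fragment density over merged MACS2 regions, after the authors removed duplicates and reduced all libraries to equal tags. Region coordinates matched the annotation: 99.7% of 7264 region and gene pairs lay within 100 kb of each other in GENCODE version 44.

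Here log2 values were turned back into normalized counts, which were whole within rounding for 100.0% of values, and 330 rows without a gene name (at most 0.00926% of a library's counts) were left out. Depth was estimated from the gaps that rounding of the scaled counts left among low values. Genes with a group mean of log2(count + 1) above 3 (13429), and regions with a mean signal above the 25th percentile (6214 of 8286, with log2(signal + 1)), were fitted with limma 3.58.1 in R 4.3.3 on a mean per group over all libraries of an assay, with a trend and Benjamini-Hochberg adjustment over all tested features; tests are two-sided. The fit was tested on simulated data. Alternatives were another pseudocount, scaling and filter, the deposited log2 values, subtraction of chromosome medians, the thresholds of the study's methods, the replicate number as a term and leaving out each library. The reported values come from the fit without the replicate number, which entered only as an alternative. With it the SE of the DMSO genotype difference went from 0.58 to 0.22 for CCL4 and from 0.42 to 0.45 for CXCL16. In that alternative the number was taken as pairing the libraries: over 10667 genes the deviations of the 18 same-number pairs correlated at 0.178 to 0.631, and those of the 36 other pairs at -0.643 to 0.286. All 10 members were named, and from each list the 2 called genes with the largest change in each comparison; CCL3-AS1, CXCL1, CXCR2, COL1A1 and NKG7 were added after their values were seen. Some genes are not reported here. Intervals and limits from counts cover counting error only. Promoter entries were found for 6 members; the last 50 bases before a start, which other transcripts can hold, are not shown.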

Additional observations from a re-analysis of the deposited data

Results flagged for a closer look

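The ATRA response of 3 members differed between the genotypes by the interaction term once the replicate number was in the fit. In that fit the response of 3175 of all 13429 tested genes differed by the same rule. For CCL2 the log2 increase was smaller in HK3-null by -1.28 (limma adjusted p = 0.00303), for CXCL8 by -0.89 (adjusted p = 0.00347) and for CCL23 by -2.18 (adjusted p = 0.0357). Without the replicate term the adjusted p values were 0.192, 0.262 and 0.124. CCL23 rests on 0, 4 and 7 counts in Cas9 control DMSO. With a library left out, and without that term, the values ran from -0.78 to -1.74 for CCL2, from -0.61 to -1.25 for CXCL8 and from -1.29 to -2.79 for CCL23, and with a pseudocount of 8 the CCL23 value was -1.13.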

How the results depend on the processing

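The count of members called for the interaction moved most: it was 0 as reported, 3 with the replicate block, 2 with a pseudocount of 8 (CCL23 lower and CXCL16 higher), 2 with an unadjusted p under 0.05 and a 1.5-fold limit, and 0 to 1 with each library left out, the 1 appearing without Cas9 control DMSO replicate 1 or replicate 3. Over all 13429 tested genes the interaction passed for 1317 as reported and 3175 with the replicate block. It passed for 1569 with the pseudocount of 8 and 1395 with the unadjusted p. ATRA called 5 members in Cas9 control, 3 with a pseudocount of 8 and 4 to 6 with a library left out. In HK3-null it called 4, 2 with the log2 values as deposited and 3 to 5 with a library left out. The genotype counts were 7 in DMSO and 6 in ATRA, ranging from 6 to 7 and staying at 6 with a library left out, and from 5 to 7 in both under the other alternatives. The replicate block, besides the interaction, brought CCL4 past the threshold for ATRA in both genotypes and CXCL8 in HK3-null past the adjusted p but not the 2-fold limit, and changed no other call. CCL23 in DMSO lost its call with quantile normalization (adjusted p = 0.0812), with the deposited values (adjusted p = 0.120) and without a filter (adjusted p = 0.0580). Its ATRA response in HK3-null lost its call with quantile normalization (adjusted p = 0.0706), with the deposited values (adjusted p = 0.578), without HK3-null ATRA replicate 2 (adjusted p = 0.0835) and without HK3-null DMSO replicate 1 or 2 (adjusted p = 0.0647 and 0.0564). Of 916 single values recomputed, 882 stayed on their side of the p limit, read without the fold limit, 17 no longer passed it and 17 newly passed it. Under 2-fold among these were 2 values of CXCL8 for ATRA in HK3-null. The CXCL8 interaction with the replicate block (-0.89), which has no fold limit, was also under 2-fold. None that was called changed sign. Values that rest on a group near 0 shrank by over 1.5 times with a pseudocount of 8, and are given beside the results. The region counts were 6, 1 and 1 and ranged from 5 to 6 in DMSO with a library left out. Members under 10 counts are limited by depth. The causes were not tested.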
